A study of Homo sapiens with 9 samples.

Results

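The genes described here are the CDK inhibitors and the D-type cyclins, a set of 10 genes fixed by name: CDKN1A, CDKN1B and CDKN1C of the CIP/KIP family, CDKN2A, CDKN2B, CDKN2C and CDKN2D of the INK4 family, and CCND1, CCND2 and CCND3. All 10 were rows of the raw count table, out of 59453 gene names. RNA-Seq had been performed on MDA-MB-231, an established human triple-negative breast cancer line, in 3 groups of 3 libraries: untreated cells, cells treated with the copper chelator TEPA for 8 h, and cells treated with TEPA for 24 h. The sample labels give a TEPA concentration of 8 mM, and the sequencing methods of the study name a lower one, so the dose of these libraries is uncertain. The times are those given for each sample, while the treatment protocol in the labels mentions 24 h alone. The untreated group, with no time given, served both time points, so TEPA and time in culture cannot be told apart. The sources do not say whether replicates were separate cultures, so the p-values measure the spread between these libraries.

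In a dividing cell, D-type cyclins bind the kinases CDK4 and CDK6, and the active complexes phosphorylate the retinoblastoma protein RB, which releases E2F transcription factors and lets the cell enter S phase. INK4 proteins bind CDK4 and CDK6 and block their pairing with cyclin D. CIP/KIP proteins act on a wider range of cyclin-CDK complexes, above all those of CDK2, and they also help cyclin D and CDK4 assemble. MDA-MB-231 is known as a line with a deletion at CDKN2A. DNA was not measured in these libraries.

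Total counts ran from 34633755 to 49342659 per library, and 16556 genes passed the expression filter. Levels are given in CPM, the count scaled to a common library size after TMM adjustment, and fold changes come from edgeR's quasi-likelihood test with Benjamini-Hochberg adjustment over all tested genes. A gene is called higher or lower at an adjusted p under 0.05. The mitochondrial share of counts was 1.79% to 2.91% in untreated libraries, 3.61% to 4.02% at 8 h and 1.89% to 2.02% at 24 h. It was thus raised at 8 h, and its part in the results was not tested. VIM, a mesenchymal marker of the line, was abundant at 3674 CPM in untreated cells, whereas PGR, CD3E and HBB were at 0 in all 9 libraries. PGR was 1 of 6 luminal and hormone receptor markers, and ESR1 of that list had 9 counts or fewer per library. The rest of that list was counted, with KRT8 at 404.7, ERBB2 at 81.4, GATA3 at 10.6 and FOXA1 at 3.07 CPM in untreated cells. Other defining markers of endothelium, fibroblasts and fat were low, with CDH5 and VWF at 3 counts or fewer, DCN at 4 or fewer, COL3A1 at 12 or fewer and ADIPOQ at 1 or fewer per library. PECAM1, an endothelial surface protein, averaged 3.60 CPM without TEPA, falling to 1.06 CPM in the 8 h group and reaching 8.13 CPM in the 24 h group. Summed levels of the 4 fibroblast markers ranged from 42.4 to 55.4 CPM in untreated libraries, 57.04 to 61.7 CPM at 8 h and 108.4 to 117.7 CPM at 24 h, with PDGFRB at 34.2, 27.1 and 94.5 CPM and COL1A1 at 13.7, 32.4 and 18.04 CPM on average. PLIN1, a fat droplet protein, had 11 to 23 counts per untreated library, 16 to 28 at 8 h and 32 to 50 at 24 h, and was called higher at 24 h (1.08 log2 units, adjusted p = 0.00515). The part of these lists in the results was not tested.

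Of the 10 genes, 8 were counted and tested, and CDKN2A and CDKN2B had no count in any library. At 8 h, 5 of the 8 tested genes changed, 2 higher and 3 lower, beside 49.6% of all tested genes (25.2% higher and 24.5% lower). At 24 h, 5 of 8 again changed, 2 higher and 3 lower, beside 52.5% of all genes (25.7% higher and 26.8% lower). Between 24 h and 8 h, 6 of 8 differed, 3 in each direction, beside 54.8% of all genes (26% higher and 28.8% lower). The shares of the set were therefore near those of all genes, and the results below are about which members moved and how. In bulk RNA, a change in the share of cells in a given state and a change in RNA per cell cannot be told apart. The groups did not overlap for 4 of 8 members at 8 h, 5 of 8 at 24 h and 8 of 8 between the times, beside 57.8%, 57.2% and 62% of all tested genes. With a log2 fold change beyond 0.5 also required, 0 of 8 members passed at 8 h, 2 of 8 at 24 h and 1 of 8 between the times, beside 17.8%, 18.7% and 21.2% of all genes.

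**Figure D1:**
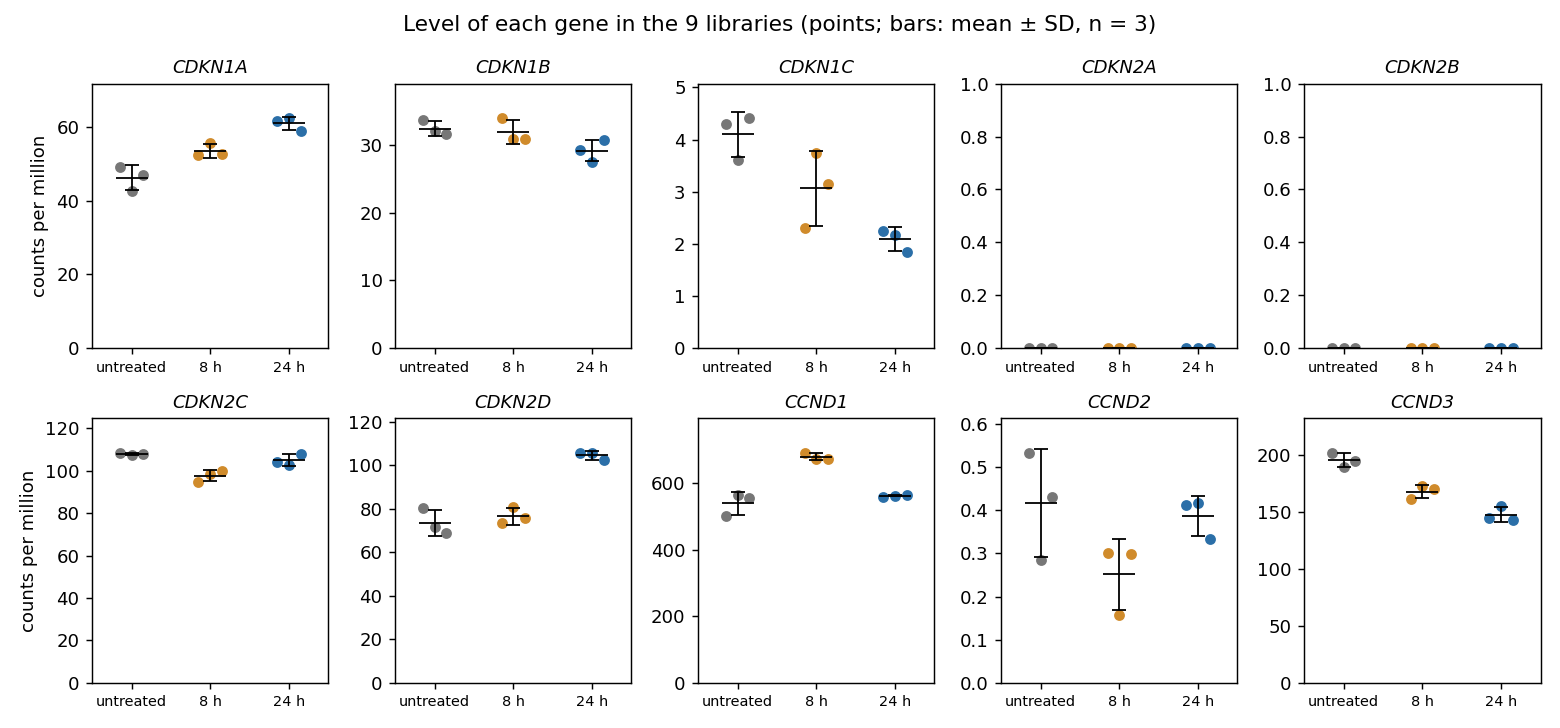
Level of each of the 10 genes in CPM (vertical axis, from 0) in the untreated, TEPA 8 h and TEPA 24 h libraries. Points are single libraries, and bars give the mean ± SD of the 3 libraries of a group. CDKN1A stepped up and CCND3 stepped down over the 3 groups, CCND1 was high at 8 h only, CDKN2D was high at 24 h only, and CDKN2A and CDKN2B stayed at 0.

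CDKN1A and CDKN2D were the members that were higher at 24 h, and the 250 bases before their RefSeq starts (GRCh38.p14) are shown, read 5′ to 3′ along the gene's own strand, with GC boxes in capitals. A GC box was searched for as GGGCGG on both strands, and overlapping matches were each counted. The CDKN1A stretch is at chr6:36678464-36678713 on the plus strand and the CDKN2D stretch at chr19:10568980-10569229 on the minus strand.
CDKN1A: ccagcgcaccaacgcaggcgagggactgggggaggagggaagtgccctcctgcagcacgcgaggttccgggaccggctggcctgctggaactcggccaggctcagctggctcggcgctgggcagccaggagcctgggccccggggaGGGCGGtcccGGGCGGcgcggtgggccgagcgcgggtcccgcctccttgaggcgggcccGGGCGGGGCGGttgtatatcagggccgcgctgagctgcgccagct
CDKN2D: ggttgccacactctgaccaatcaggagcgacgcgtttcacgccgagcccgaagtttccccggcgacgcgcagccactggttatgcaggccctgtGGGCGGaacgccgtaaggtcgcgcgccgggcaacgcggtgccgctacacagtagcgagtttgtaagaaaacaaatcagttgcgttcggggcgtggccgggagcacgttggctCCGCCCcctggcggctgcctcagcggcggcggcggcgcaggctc
The CDKN1A stretch held 4 GC boxes and was 76.4% G or C. The CDKN2D stretch held 2 GC boxes and was 67.6% G or C. By comparison, 42.6% of 35116 RefSeq promoter stretches of the same length held at least 1 GC box, and the median G or C content was 58.0%. The listed stretches of members that did not rise at 24 h held between 0 and 5 GC boxes. CDKN1B had 1 at 64.4% G or C, while CDKN2C and CCND3, each with 3 listed starts, had 5 at one start (77.2% and 74.4% G or C) and 0 at another. Among members with a listed stretch, the number of GC boxes thus did not separate those that rose from those that did not. No stretch was listed for CDKN1C, CCND1 or CCND2, and CDKN2A and CDKN2B, though listed, could not be tested for a rise. No binding was measured, and these matches are a description of the letters only.

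CDKN1A, which encodes p21, rose at both time points. Its levels were 49.0, 42.5 and 47.1 CPM in the untreated libraries. They were 52.3, 55.6 and 52.6 CPM at 8 h, and 61.7, 62.4 and 58.9 CPM at 24 h. All 8 h libraries lay above all untreated ones, and all 24 h libraries lay above all 8 h ones. Its log2 fold change against untreated cells was 0.21 ± 0.05 after 8 h (SE, adjusted p = 0.00335) and 0.40 ± 0.05 after 24 h (adjusted p = 9.68e-06). The later time exceeded the earlier by 0.19 ± 0.05 (adjusted p = 0.00569). Among all tested genes, 69% had a smaller change than CDKN1A at 24 h, so its rise was a moderate one for these libraries.

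CDKN1B, which encodes p27, was lower at 24 h by a small margin. Untreated libraries held 33.6, 32.0 and 31.5 CPM, and the 24 h libraries 29.3, 27.5 and 30.7 CPM. The 8 h libraries, at 34.0, 30.9 and 30.9 CPM, overlapped the untreated ones. Against untreated cells CDKN1B stood at -0.15 ± 0.06 on the log2 scale after 24 h (adjusted p = 0.0337), and at -0.02 ± 0.06 after 8 h (adjusted p = 0.785). The 24 h call was lost without untreated library 1 (adjusted p = 0.0851), without 24 h library 1 (0.0752), without 24 h library 2 (0.137), under upper-quartile factors (0.0771) and in DESeq2 (0.0597). The contrast of the 2 TEPA times gave -0.13 ± 0.06 (adjusted p = 0.0625), and without 24 h library 3 it was -0.17 and passed the threshold (adjusted p = 0.0348).

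CDKN1C, which encodes p57, had the largest fall among the 8 tested members at 24 h, from a low level. Untreated libraries held 161, 165 and 174 counts of it (4.29, 3.61 and 4.41 CPM). The 8 h group held 92, 143 and 116 (2.30, 3.74 and 3.16 CPM), and the 24 h group 115, 94 and 66 (2.26, 2.18 and 1.83 CPM). The 24 h libraries were all below the others, while 1 library of the 8 h group lay within the untreated range. After 24 h the fit gave -0.96 ± 0.16 on the log2 scale (adjusted p = 0.000133), and 92.3% of all tested genes changed less. After 8 h it gave -0.42 ± 0.16 (adjusted p = 0.0367). The 8 h call did not hold without untreated library 1 (adjusted p = 0.0708), untreated library 3 (0.109), 8 h library 1 (0.177, the log2 value then being -0.25) or 8 h library 3 (0.0636), nor in DESeq2 (0.0539), in a fit of the 2 groups alone (0.0525) or with the replicate number as a block (0.0541). Between the times CDKN1C differed by -0.54 ± 0.17 (adjusted p = 0.0133), a call lost without 8 h library 2 (log2 difference -0.37, adjusted p = 0.0987) or 24 h library 3 (0.0511).

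Within the CIP/KIP family, the make-up of the transcripts per length moved toward CDKN1A. Levels were divided by the length of each gene's Ensembl canonical transcript, and CDKN1A then made up 56.8% to 58.8% of the family's summed level in untreated libraries, 61.6% to 63.8% at 8 h and 66.9% to 70.0% at 24 h. CDKN1B made up 34.6% to 37.5%, 31.1% to 35.1% and 27.1% to 30.6%. CDKN1C made up 5.76% to 6.58%, 3.24% to 5.12% and 2.49% to 2.99%. Per length, CDKN1A was 1.51 to 1.70 times CDKN1B in untreated libraries and 2.19 to 2.58 times at 24 h.

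**Figure D2:**
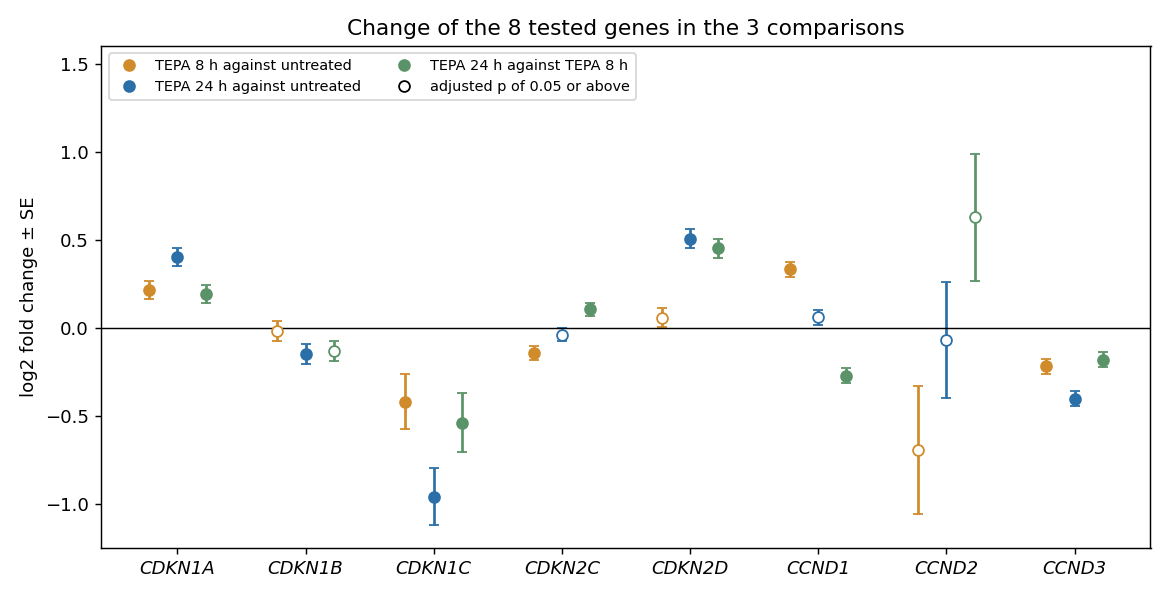
Log2 fold change (vertical axis) of the 8 tested genes in the 3 comparisons, with bars of 1 standard error from the edgeR fit of 9 libraries. Open points had an adjusted p of 0.05 or above. CDKN1A and CDKN2D lay above 0 and CDKN1C and CCND3 below 0 at 24 h, and CCND1 lay above 0 at 8 h but near it at 24 h.

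In the INK4 family, CDKN2A and CDKN2B were absent from these libraries. CDKN2A encodes p16 and, from another reading frame, ARF, and CDKN2B encodes p15. Both had 0 counts in each of the 9 libraries, which together held 367733744 counts. A count of 0 allows up to 3 counts, which is 0.0588 to 0.0834 CPM in a single library and 0.00816 CPM over all 9, for counting error only. They could not be tested, and TEPA gave no detectable count of either at 8 h or 24 h.

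The nearest protein-coding genes around them on chromosome 9 had no counts either. CDKN2A lies at chr9:21967752-21995301 and CDKN2B at chr9:22002903-22009305 on hg38, both on the minus strand (GENCODE 44). Between FOCAD, which ends at 20995955, and TUSC1, which starts at 25676969, lay 4681 kb with 24 protein-coding genes in the table. All 24 had 0 counts in all 9 libraries. Of these, 16 were interferon genes, which most cells do not transcribe without a stimulus. The other 8 were HACD4, KLHL9, MTAP, CDKN2A, CDKN2B, DMRTA1, ELAVL2 and IZUMO3. Of the 24, only DMRTA1, ELAVL2 and IZUMO3 lay between CDKN2B and TUSC1, and whether such cells usually express them was not examined. MTAP, a methionine salvage enzyme that most tissues express, lies on the FOCAD side of CDKN2A, and CDKN2B is next to CDKN2A on the other side.

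Counting resumed on both flanks. FOCAD had 47 to 81 counts per library and a mean of 1.62 CPM. MLLT3, farther out, had 189 to 371 counts and a mean of 6.16 CPM. TUSC1 had 484 to 935 counts and a mean of 16.1 CPM. Within 5 Mb on either side of the CDKN2A start, 12 of 40 protein-coding genes had at least 10 counts in every library. Of the 16 outside the stretch between FOCAD and TUSC1, 2 were at 0. Including non-coding genes and pseudogenes, 49 of 52 genes in the stretch were at 0. The antisense transcript CDKN2B-AS1 had 1 count in all, and the pseudogene KHSRPP1 had 13. The pseudogene CLIC4P1 had 1192, and as a copy of another gene it may hold reads of that gene. RNA alone does not tell a lost region from a silent one, and the copy number was not measured.

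**Figure D3:**
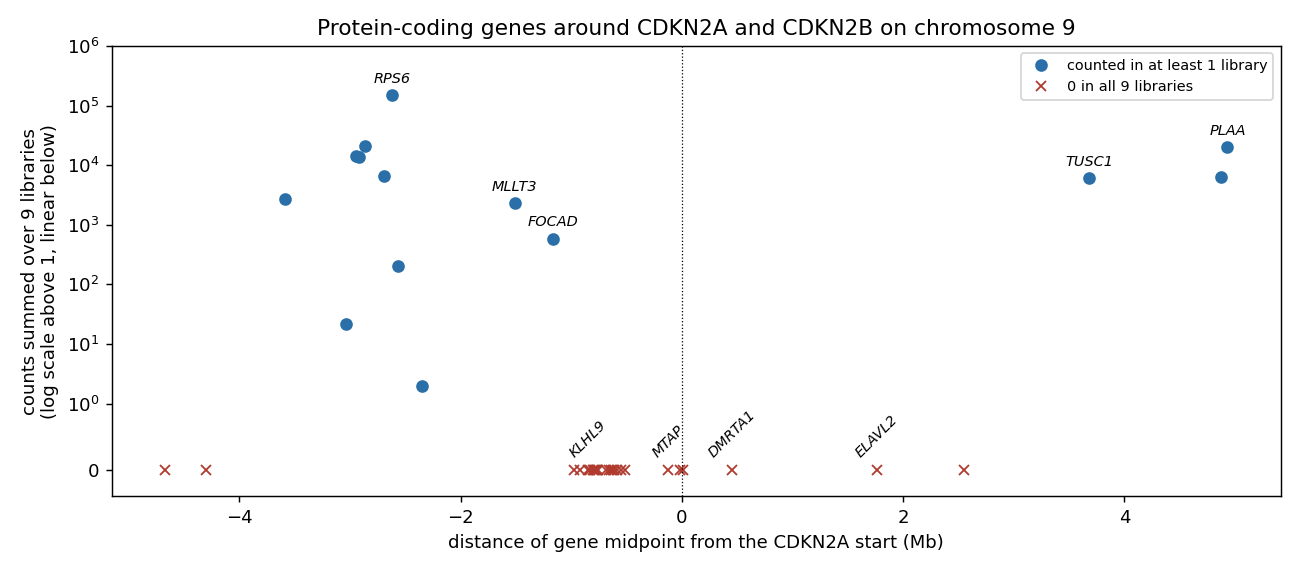
Counts summed over the 9 libraries (vertical axis, logarithmic above 1 and linear below) for protein-coding genes against the distance of the gene's midpoint from the CDKN2A start in Mb. Crosses mark genes at 0 in all 9 libraries. The 24 genes from HACD4 to IZUMO3 sit at 0, with FOCAD and MLLT3 counted on one side and TUSC1 and PLAA on the other.

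CDKN2C and CDKN2D, which encode the INK4 proteins p18 and p19, were both well expressed and moved at different times. CDKN2C was at 108.4, 107.5 and 108.1 CPM in untreated libraries and at 94.8, 98.5 and 99.9 CPM at 8 h. At 24 h it was at 104.1, 102.8 and 108.1 CPM. The 8 h drop was -0.14 ± 0.04 in log2 units (adjusted p = 0.00439), with no overlap between the groups. By 24 h the value was -0.04 ± 0.04 (adjusted p = 0.376), and the 24 h libraries overlapped the untreated ones. The difference between the times was 0.10 ± 0.04 (adjusted p = 0.0272), a call lost without 8 h library 1 (adjusted p = 0.0951), 24 h library 1 (0.0581) or 24 h library 3 (0.0906).

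CDKN2D was called higher at 24 h and was not called at 8 h, and the difference between the times was itself called. Its levels were 80.2, 71.8 and 68.8 CPM in untreated libraries, 73.3, 80.6 and 75.6 CPM at 8 h, and 105.7, 105.5 and 102.2 CPM at 24 h. The 24 h libraries were above all others, and the other groups overlapped. Against untreated cells it rose by 0.51 ± 0.05 on the log2 scale after 24 h (adjusted p = 9.52e-07), and stood at 0.06 ± 0.05 after 8 h (adjusted p = 0.409). Without untreated library 1 the 8 h change was 0.12 and passed the threshold (adjusted p = 0.0417). The difference between the times was 0.45 ± 0.05 (adjusted p = 2.98e-06). CDKN2D made up 30.8% to 34.1% of the INK4 level per canonical transcript length in untreated libraries, 34.6% to 36.4% at 8 h and 39.8% to 41.7% at 24 h, and CDKN2C made up the rest.

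CCND1, which encodes cyclin D1, was the most abundant member and was called higher at 8 h but not at 24 h. Its levels were 499.5, 563.1 and 554.4 CPM in untreated libraries, 690.2, 672.6 and 672.7 CPM at 8 h, and 559.1, 561.9 and 562.8 CPM at 24 h. The 8 h libraries lay above all others, and the 24 h libraries lay within the untreated range. CCND1 rose by 0.33 ± 0.04 log2 units after 8 h (adjusted p = 9.71e-06), and stood at 0.06 ± 0.04 after 24 h (adjusted p = 0.264). The contrast of the 2 TEPA times was -0.27 ± 0.04 (adjusted p = 4.83e-05).

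CCND3, which encodes cyclin D3, fell at both times. Untreated libraries held 201.7, 189.7 and 194.6 CPM. The 8 h libraries held 160.9, 172.5 and 169.6 CPM, and the 24 h libraries 144.5, 155.4 and 143.0 CPM, with no overlap between any of the groups. In log2 units CCND3 was down to -0.22 ± 0.04 after 8 h (adjusted p = 0.000467) and -0.40 ± 0.04 after 24 h (adjusted p = 1.05e-06). The later TEPA group was below the earlier one (-0.18 ± 0.04, adjusted p = 0.00175).

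CCND2, which encodes cyclin D2, was barely expressed. Only 20, 13 and 17 counts came from the untreated libraries, 12, 6 and 11 from the 8 h group, and 21, 18 and 12 from the 24 h group. Its log2 fold change was -0.70 ± 0.36 after 8 h (adjusted p = 0.126), against -0.07 ± 0.33 after 24 h (adjusted p = 0.872). Between the times it was 0.63 ± 0.36 (adjusted p = 0.159), so a change was not detectable at this depth.

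Cyclin D1 messages therefore exceeded cyclin D3 messages in every library, and the gap was wider with TEPA. Per canonical transcript length, CCND1 was 1.18 to 1.42 times CCND3 in untreated libraries, 1.86 to 2.05 times at 8 h and 1.73 to 1.88 times at 24 h. CCND2 made up at most 0.0378% of the D-type cyclin level in any library. In untreated cells the levels per kb of canonical transcript were 127.2 ± 8.1 CPM (SD, n = 3) for CCND1, 108.5 ± 0.5 for CDKN2C, 96.4 ± 3.0 for CCND3, 51.7 ± 4.2 for CDKN2D, 21.8 ± 1.6 for CDKN1A, 13.4 ± 0.5 for CDKN1B and 2.32 ± 0.24 for CDKN1C. No neighbours in that order overlapped. The order depends on the length used, since per kb of all annotated exons CDKN2D (48.9) came ahead of CDKN2C (35.8) and CCND3 (33.9).

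CDK4, CDK6 and CDK2, the kinases these proteins act on, moved by at most 0.18 log2 units in either direction against untreated cells. CDK4 averaged 211.4 ± 4.1 CPM without TEPA and fell by 0.15 ± 0.04 log2 units after 24 h (adjusted p = 0.00401). CDK6 rose by 0.18 ± 0.05 at 24 h (adjusted p = 0.00997). It missed the threshold without 24 h library 3 (0.14, adjusted p = 0.0518) and stayed called at 0.12 without untreated library 1 (adjusted p = 0.0397). CDK2, the main CIP/KIP target, was at 0.07 and 0.10 log2 units above untreated cells after 8 h and 24 h, neither called. It passed the threshold in 1 of 13 alternatives at 8 h (adjusted p = 0.0263). At 24 h it passed in 4 of 13, with a lowest adjusted p of 0.00448. Of the 11 CDK and cyclin partner genes, 1 was higher and 4 were lower at 8 h, and 1 was higher and 9 were lower at 24 h. Their median at 24 h was -0.20 log2 units, against 0.0023 for all tested genes. The share called was 45.5% and 90.9%, beside 49.6% and 52.5% of all tested genes. Of all tested genes, 25.2% were higher and 24.5% lower at 8 h, and 25.7% and 26.8% at 24 h. CCNA1, a cyclin A gene, fell at both times (-0.58 and -0.83), as did MNAT1, a subunit of the CDK-activating kinase (-0.27 and -0.62).

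Among 13 genes of pocket proteins and E2F factors, 4 were higher and 4 lower at 8 h, and 2 were higher and 8 lower at 24 h. The share called was 61.5% and 76.9%, beside 49.6% and 52.5% of all tested genes. RB1, the target of cyclin D kinases, was at -0.10 and 0.11, not called at either time. With no filter on low counts both values of RB1 passed the threshold (adjusted p = 0.0406 and 0.0373), and without 24 h library 2 the later one did (0.18, adjusted p = 0.00765). E2F1, an activating E2F, rose by 0.13 ± 0.04 at 24 h (adjusted p = 0.00746). E2F2 fell at both times (-0.46 and -0.61), and E2F5 fell at 24 h (-0.58). Of 16 E2F target genes of S phase, 1 was higher and 8 lower at 8 h, and 2 were higher and 8 lower at 24 h. Calls made up 56.2% and 62.5% of this list, beside 49.6% and 52.5% of all tested genes. The replication licensing gene CDC6 fell at both times (-0.26 and -0.46), and so did the helicase subunit MCM6 (-0.44 and -0.35).

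Mitotic genes differed between the 2 times. Of 12, 6 were higher and 1 lower at 8 h, whereas 1 was higher and 9 were lower at 24 h. The share called was 58.3% and 83.3%, beside 49.6% and 52.5% of all tested genes. The medians of the 12 genes were 0.09 and -0.16 log2 units. In the contrast of 24 h with 8 h, 10 of the 12 were lower and 0 higher, beside 28.8% and 26% of all tested genes. MKI67, the Ki-67 proliferation marker, rose by 0.48 ± 0.06 at 8 h (adjusted p = 1.16e-05) and was at 0.03 at 24 h (adjusted p = 0.689). The mitotic kinase PLK1 rose by 0.17 ± 0.04 at 8 h (adjusted p = 0.00224) and fell by 0.46 ± 0.04 at 24 h (adjusted p = 1.46e-07).

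Of 15 genes of p21 and p27 turnover, 4 were higher and 3 lower at 8 h, and 3 were higher and 6 lower at 24 h. The share called was 46.7% and 60%, near the 49.6% and 52.5% of all tested genes. SKP2, the F-box protein that directs p27 to degradation, rose by 0.17 ± 0.06 at 8 h (adjusted p = 0.0184) and fell by 0.18 ± 0.06 at 24 h (adjusted p = 0.0118). The SKP2 call at 8 h was lost without untreated library 1 (adjusted p = 0.0704) or any one of the 8 h libraries (0.0539, 0.0594 and 0.0527), and that at 24 h without untreated library 3 (0.0791) or 24 h library 2 (0.0624). CUL1, the scaffold of the same ligase, fell at both times (-0.25 and -0.34). FOXO4, a transcription factor of the FOXO family that acts on CDKN1B, rose at 24 h (1.24). MDM2, a ubiquitin ligase that is not in this list, rose by 0.31 ± 0.05 at 24 h (adjusted p = 7.03e-05). Of 13 tested genes of cyclin D turnover and synthesis, 2 were higher and 6 lower at 8 h, and 3 were higher and 7 lower at 24 h. Calls made up 61.5% and 76.9% of this list, beside 49.6% and 52.5% of all tested genes. FOSL1, an AP-1 subunit, rose by 0.35 ± 0.07 at 8 h (adjusted p = 0.000455) and fell by 0.46 ± 0.07 at 24 h (adjusted p = 3.35e-05). FBXO4, an F-box protein linked to cyclin D1 degradation, fell at both times (-0.57 and -0.70), and MYC fell by 0.22 ± 0.05 at 24 h (adjusted p = 0.00112).

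TGF-beta restrains division in epithelial cells partly through CDKN1A and CDKN2B, and partly by lowering ID genes. Of 8 tested TGF-beta cytostatic genes, 3 were higher and 1 lower at 8 h, and 6 were higher and 1 lower at 24 h. The share called was 50% and 87.5%, beside 49.6% and 52.5% of all tested genes. The list medians were 0.09 and 0.29 log2 units. The list joins SMAD2, SMAD3, SMAD4, SP1 and ZBTB17 with the ID genes, which TGF-beta lowers. Its counts and medians therefore have no single direction as a TGF-beta response. ID2 averaged 6.40 ± 0.48 CPM without TEPA, then 13.4 ± 0.5 CPM and 19.9 ± 1.6 CPM with it, a rise of 1.06 ± 0.08 and of 1.63 ± 0.08 on the log2 scale (adjusted p = 8.13e-08 and 3.12e-10). ID1 rose too (0.45 and 0.58). Of 8 tested 9p21 neighbours, 1 was higher and 4 lower at 8 h, and 1 was higher and 0 lower at 24 h. Calls made up 62.5% and 12.5% of this list, beside 49.6% and 52.5% of all tested genes. TUSC1 was at -0.31 and 0.21, both called, and MLLT3 was at -0.27, called, and 0.21, not called. The TUSC1 call at 24 h was lost without untreated library 3 (adjusted p = 0.0806) or 24 h library 2 (0.053). The MLLT3 call at 8 h was lost without untreated library 1 (0.084), 8 h library 1 (0.0518) or 8 h library 2 (0.0756) and in DESeq2 (0.059). At 24 h MLLT3 passed the threshold without untreated library 1 (0.021), under RLE (0.0481) and upper-quartile factors (0.0321), and with 10 counts required in every library (0.0433). Of 16 other CDK inhibitor or cyclin family genes, 6 were higher and 6 lower at 8 h, and 6 were higher and 2 lower at 24 h. Calls made up 75% and 50% of this list, beside 49.6% and 52.5% of all tested genes. CCNL2, a cyclin of RNA splicing, rose at both times (0.80 and 0.41), and CCNG2 fell at 8 h (-0.49) and rose at 24 h (0.41). Without untreated library 1 the CCNG2 values were -0.28 and 0.63, and without untreated library 2 the 24 h value was 0.27, all still called.

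**Figure D4:**
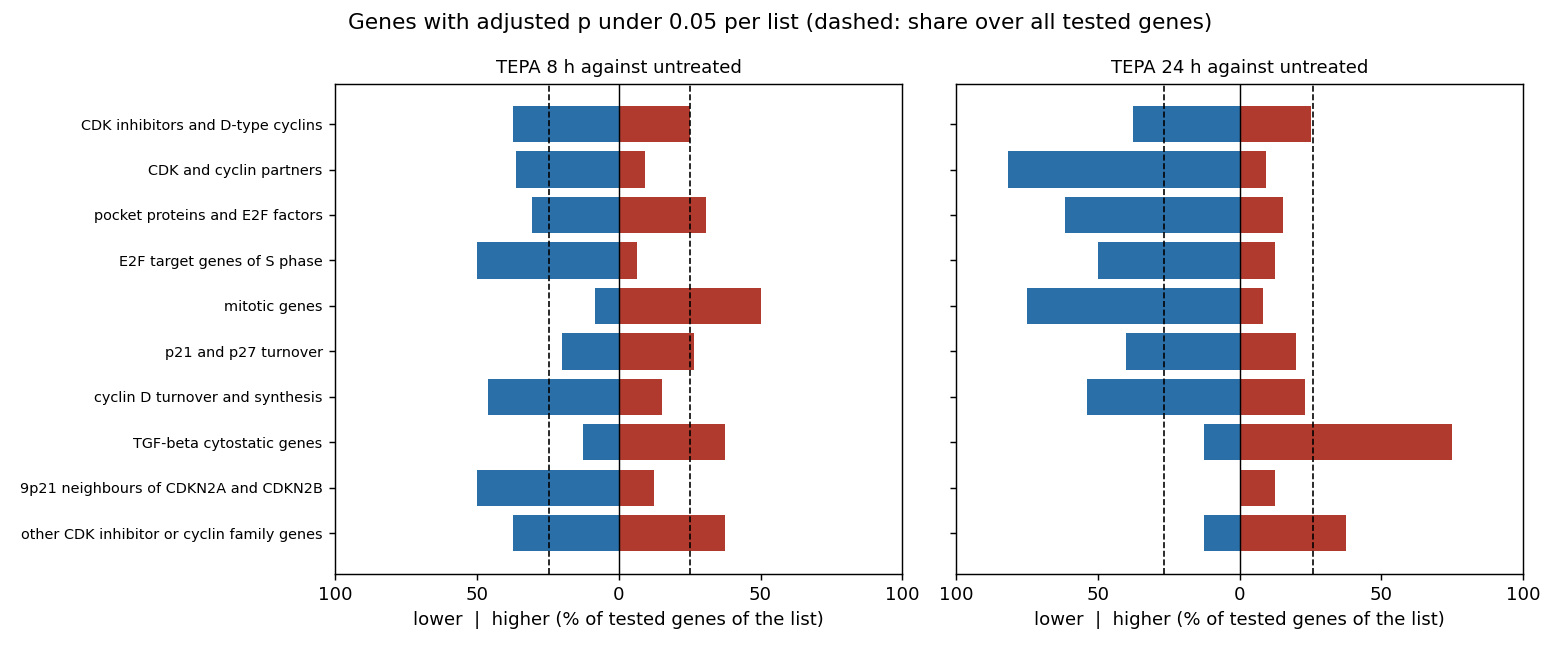
Percent of the tested genes of each list that were called higher (bars to the right) or lower (bars to the left) at an adjusted p under 0.05, at 8 h and at 24 h against untreated cells. Dashed lines give the share over all 16556 tested genes. Mitotic genes extend to the right at 8 h and to the left at 24 h, and CDK and cyclin partners extend to the left at 24 h.

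Among the genes whose pattern over the 9 libraries was most like that of CDKN1A were RARG and INTS4, with root mean square differences of 0.041 and 0.0433 in mean-centred log2 CPM, out of 11919 candidates. For CCND1 the closest were MTIF2, NSD2 and METAP1, at 0.0188, 0.0239 and 0.0244. All 9 libraries enter each measure, so library-wide differences are shared by every gene compared.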

How the data were processed

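Libraries of MDA-MB-231 cells (3 untreated, 3 with TEPA for 8 h, 3 with TEPA for 24 h) were used. According to the study's methods and the submitters' processing notes, FastQC served for read quality, HISAT2 for alignment to hg38, and featureCounts for stranded counting over exons by gene name. The authors deposited raw counts per gene name, without normalization. The dose differs between sources.

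From these counts, edgeR 4.0.16 (R 4.3.3) was run on genes passing filterByExpr at a minimum count of 10, with TMM scaling and a single quasi-likelihood fit to the 9 libraries. A standard error here is the log2 change over the root of its F statistic, without sign. Benjamini-Hochberg adjustment covered 16556 genes. As alternatives, scaling was by RLE or upper-quartile factors, DESeq2 1.42.0 replaced edgeR, the filter was dropped or set to 10 counts in every library, only the 2 groups of a comparison were fitted, replicate number was added as a block, each library was left out, and a log2 limit of 0.5 was added. The model was tested on simulated counts. Positions and lengths are from GENCODE 44 (hg38), and promoters from RefSeq (GRCh38.p14).

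The members and all gene lists were chosen with earlier results of these data known. Named were all 10 members, partners fixed by name, and from each list the 2 genes with the largest change against untreated cells at either time among those with a mean of at least 100 counts. Marker genes, FOXO1, FOXO3, the pseudogenes and genes at 0 on chromosome 9 were named beside the results they touch. Exons of LTO1, DINOL, CCND2-AS1 and CDKN2B-AS1 lie opposite CCND1, CDKN1A, CCND2 and CDKN2A, and strand was used in counting. Genes known only by Ensembl identifier, not among the counted names, lie opposite CDKN2C (20.4% of its exon length), CCND2 and CCND3. Another lies on the same strand over 12.5% of the CCND2 exon length, where strand cannot separate the reads. Results of a few named genes and of 1 list are left out of the text, and the list still counts in totals over all lists.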

Additional observations from a re-analysis of the deposited data

Results flagged for a closer look

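For 6 members, the TEPA 24 h and TEPA 8 h groups differed in the contrast already given above (edgeR, adjusted over all tested genes). The untreated libraries cancel in this contrast, so a changed effect of TEPA cannot be told apart from time in culture. The log2 level was higher at 24 h for CDKN1A, by 0.19 (adjusted p = 0.00569), and for CDKN2C, by 0.10 (adjusted p = 0.0272). CDKN2D was higher by 0.45 (adjusted p = 2.98e-06). CDKN1C was lower at 24 h, at -0.54 (adjusted p = 0.0133), as was CCND1, at -0.27 (adjusted p = 4.83e-05). CCND3 was lower as well, at -0.18 (adjusted p = 0.00175). Each of these 6 genes had groups that did not overlap in 3 of 3 libraries, and so did CDKN1B and CCND2, which were not called. The 6 genes were picked by this contrast, so the lack of overlap adds no support. Of all tested genes, 62% had groups that did not overlap. The calls of CDKN1C and CDKN2C were lost without single libraries, as given with their values.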

How the results depend on the processing

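The number of members called was 4 or 5 at 8 h, 4 or 5 at 24 h and 5 or 6 between the times in every fit that left out 1 library, and lay in the same ranges under the other scalings, filters and tools. With a log2 fold change beyond 0.5 also required, 0, 2 and 1 members passed. Calls of fixed-list genes were 71, 86 and 90 of 128, beside 49.6%, 52.5% and 54.8% of all tested genes. They ranged from 54 to 69, 71 to 89 and 83 to 92 when 1 library was left out. The calls of CDKN1A and CCND3 at both times, CDKN2C and CCND1 at 8 h, and CDKN1C and CDKN2D at 24 h held in all 13 alternatives fitted without a fold limit. Values that changed sign were uncalled, and apart from those of CCND2 they were small. When 1 library was left out, log2 changes at 8 h ran from -0.0737 to 0.0045 for CDKN1B, -0.0721 to 0.0016 for E2F5, -0.0105 to 0.0192 for CDK4 and -0.0843 to 0.0055 for CDK6. At 24 h they ran from -0.3012 to 0.1393 for CCND2 and -0.0603 to 0.0867 for MKI67. CDK4 at 8 h was also -0.0025 with no filter and -3e-04 in DESeq2. The cause was not tested. Replicate numbers did not pair libraries: correlations of deviations ran from -0.246 to 0.182 between groups for the same number, and 1 of 9 libraries correlated best with its own number. With the replicate block, 4, 5 and 6 members and 64, 82 and 89 list genes were called. The block lost CDKN1C at 8 h (-0.42, adjusted p = 0.0541) and MYC between the times (-0.12, adjusted p = 0.0588). That MYC call was lost in 11 of the 13 alternatives, with an adjusted p of up to 0.166. Depth limits CCND2, with 6 to 21 counts per library.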
